A study of Rattus norvegicus with 4 samples.

Results

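Col1a1, Col1a2, Col3a1, Col4a1, Dcn, Lum, Des, Pdgfrb, Acta2 and Tagln, 10 genes of hepatic stellate cells and of the extracellular matrix, were examined in liver RNA from 4 rats. They were found by exact match of the gene symbol, and all 10 were present among the 16992 annotated genes of the deposited tables. Male wild type Wistar rats were obtained at 6 weeks of age and acclimatized for at least 1 week. They had no food or water for the 2 hours before anesthesia. They then inhaled 4.5% sevoflurane or 6% desflurane with a flow of added oxygen. For each agent, 1 rat was sacrificed after 6 hours of anesthesia. The control of each agent was a rat that had inhaled the same agent for less than 1 minute, until it lost consciousness, so that no liver was free of anesthetic. The left lateral lobe of each liver was sampled, and 1 library represented each of the 4 conditions. A difference between conditions and a difference between 2 rats therefore cannot be told apart, and no p-values were calculated. The 6 hours of anesthesia followed the time without food. A longer fast and a longer time in the oxygen flow thus went with every 6 hour liver and cannot be told apart from the anesthetic.

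Stellate cells lie between hepatocytes and the sinusoidal endothelium and store vitamin A in the resting state. When they become activated, they take on features of myofibroblasts, express the contractile proteins of smooth muscle, and deposit fibrillar collagen, and platelet-derived growth factor and transforming growth factor beta are the classical signals of this change. In a normal liver, the genes examined here are also expressed by portal fibroblasts, vascular smooth muscle, and, for type IV collagen, endothelial cells. In whole-liver RNA, fewer cells of a type and less RNA per cell cannot be told apart.

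The values are TPM (transcripts scaled to a fixed library total), which are corrected for gene length and can be compared between genes. Aligned sequence ranged from 4.47 to 5.40 Gb per library, and the average coverage of the 10 genes ranged from 2.86 for Lum in the sevoflurane control to 385 for Col3a1 in the desflurane control. Genes were called past the limits when the larger of the 2 TPM values exceeded 2 and the ratio exceeded 2-fold. Unless another control is named, calls refer to the control of the same agent. Of 9754 genes tested with sevoflurane, 2.23% were higher and 3.3% lower past the limits. Of 9855 genes tested with desflurane, the shares were 2.79% and 1.48%. Counts of genes past the limits in the gene lists below are to be read beside these shares. Over all genes above 2 TPM in either library, the median log2 ratio was 0.05 for sevoflurane and 0.12 for desflurane against their own controls, and log2 ratios are to be read relative to these shifts.

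The levels of the 10 genes ranged from 1.59 TPM for Lum to 220 TPM for Col3a1. Col3a1, which encodes the chain of type III collagen, was by far the most abundant of them, with a median TPM value of 211 over the 4 libraries, rank 408 of the 16992 genes. It made up between 58.2% and 63.0% of the summed TPM of the 10 genes. Col1a2 (median 35.7) and Col4a1 (34.3) followed, and their ranges over the 4 libraries overlapped. Col1a1 (16.7), Tagln (13.0), Dcn (11.4), Pdgfrb (10.7), and Acta2 (9.77) came next, and each of these overlapped in range with its neighbor in this order. Des (2.57) and Lum (2.35) were close to the 2 TPM limit. The lowest Col3a1 value, 196, exceeded the highest Col1a2 value, 45.0, and the lowest Acta2 value, 6.28, exceeded the highest Des value, 3.04.

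**Figure D1:**
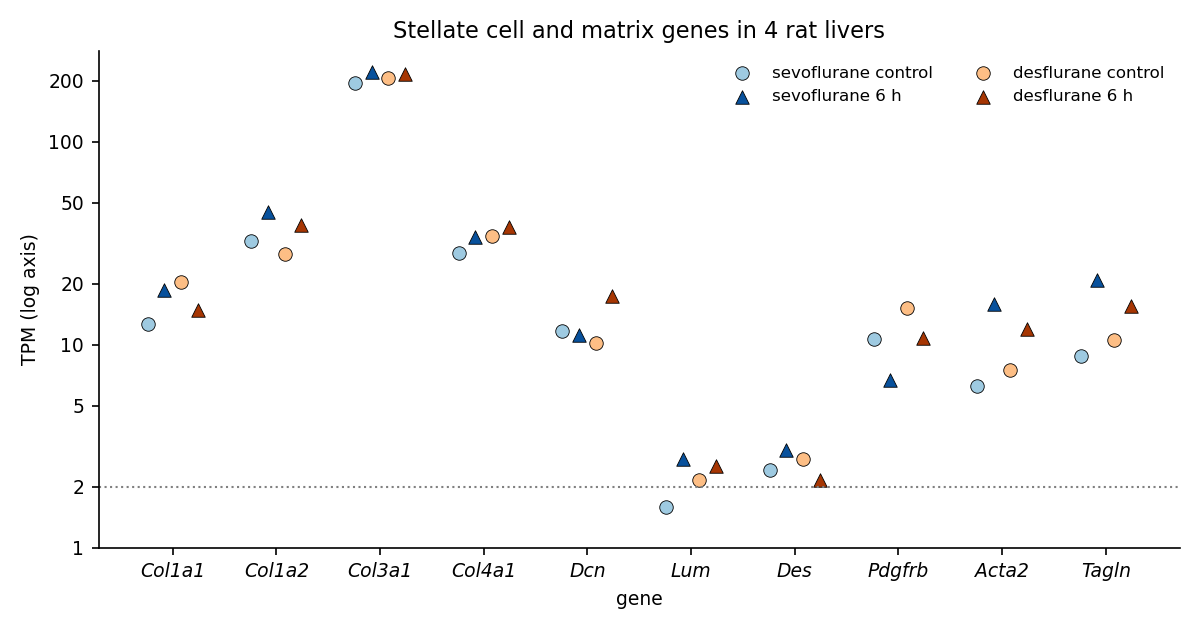
TPM values (log axis) of the 10 genes in the 4 livers, with circles for the controls and triangles for 6 hours of anesthesia; the dotted line marks 2 TPM. The triangles of Acta2 and Tagln lie above both of their circles, whereas the 4 points of Col3a1 lie between 196 and 220.

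The question of the comparison was which genes differed after 6 hours of anesthesia from the start of it. Acta2 and Tagln, 2 of the 10 members, were higher past the limits against the sevoflurane control, compared with 2.23% of the 9754 genes tested. Acta2 encodes alpha smooth muscle actin, the usual protein marker of activated stellate cells and of vascular smooth muscle. It lies on the minus strand of chromosome 1 (chr1:252537614-252550394, rn6). Its TPM value was 6.28 at the start of sevoflurane and 15.8 at 6 hours, and 7.53 at the start of desflurane and 12.0 at 6 hours. Both controls were below both livers collected after 6 hours, a pattern found in 33.3% of the 9993 genes above 2 TPM in any liver. Acta2 was 2.52-fold higher with sevoflurane and 1.60-fold higher with desflurane than in the respective control. Set against the other agent's control, the log2 ratios were 1.07 and 0.94, and the first was no longer past the limits with 1 TPM added or with median-of-ratios scaling. After 6 hours, the desflurane liver had 0.760 times the Acta2 value of the sevoflurane liver.

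Tagln encodes transgelin (SM22 alpha), an actin-binding protein of smooth muscle and myofibroblasts, and lies at chr8:50222895-50228369 on the minus strand. Its TPM value was 8.81 at the start of sevoflurane and 20.8 at 6 hours, and 10.5 at the start of desflurane and 15.6 at 6 hours. The order of the 4 livers was the same as for Acta2. Tagln was 2.36-fold higher with sevoflurane and 1.48-fold higher with desflurane, and the ratios were 1.98 and 1.77 against the other agent's control. The ratio of Tagln to Acta2 stayed between 1.30 and 1.40 in the 4 libraries. Among the pairs of members above 2 TPM in every library, these genes had the most similar pattern, with a largest difference of 0.06 between their centered log2 values. The coding sequence of Acta2 resembles that of other actin genes, and the authors' counting could have split reads between them. Actg2, the gamma smooth muscle actin gene, was named after its values were seen and had TPM values of 1.60 and 0.88 in the sevoflurane control and 6 hour liver and 1.39 and 2.73 in those of desflurane.

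RefSeq promoters (250 bases before to 50 bases after the gene start, assembly GRCr8) were on hand for 5 of the 10 genes, namely Acta2, Col1a2, Col4a1, Des, and Lum. They were searched for the CArG element, to which serum response factor binds in genes of smooth muscle, because Acta2 passed the limits and Des, another cytoskeletal gene of contractile cells, did not. The element was taken as CC and GG around 6 inner bases of which at least 5 were A or T, a pattern that reads the same way on both strands, and TATAA was searched on both strands. Acta2 is shown with Des and with Col1a2, which was higher with both agents but within the 2-fold limit. Capitals mark the CArG elements and TATAA.
Acta2 (chr1:241172454-241172753, minus strand): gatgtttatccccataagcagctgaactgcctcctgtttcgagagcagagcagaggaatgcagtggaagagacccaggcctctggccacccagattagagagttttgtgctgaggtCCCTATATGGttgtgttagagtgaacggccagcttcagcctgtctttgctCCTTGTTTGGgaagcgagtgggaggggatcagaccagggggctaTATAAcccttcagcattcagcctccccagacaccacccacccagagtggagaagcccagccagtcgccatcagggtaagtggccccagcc
Des (chr9:84299376-84299675, plus strand): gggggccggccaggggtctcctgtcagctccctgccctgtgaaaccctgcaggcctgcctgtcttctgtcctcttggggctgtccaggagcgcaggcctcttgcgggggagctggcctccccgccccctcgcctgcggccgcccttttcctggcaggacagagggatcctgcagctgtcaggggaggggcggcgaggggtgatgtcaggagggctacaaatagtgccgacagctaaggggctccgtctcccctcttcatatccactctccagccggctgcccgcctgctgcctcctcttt
Col1a2 (chr4:33518307-33518606, plus strand): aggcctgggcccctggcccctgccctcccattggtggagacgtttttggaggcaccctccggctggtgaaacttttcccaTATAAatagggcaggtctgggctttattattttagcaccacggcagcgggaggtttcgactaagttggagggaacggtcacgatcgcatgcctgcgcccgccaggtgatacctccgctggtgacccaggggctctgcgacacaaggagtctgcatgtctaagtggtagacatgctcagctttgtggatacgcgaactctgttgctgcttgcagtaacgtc
The Acta2 window held 2 CArG elements, CCCTATATGG and CCTTGTTTGG, which begin 134 and 84 bases before the gene start, and TATAA 40 bases before it. None of the elements overlapped. In each CArG element, 1 of the inner bases was not A or T. Of 33469 promoters of the same length, 9.42% held at least 1 such element and 0.846% held at least 2. TATAA was present in 26.2% of them. The windows of Col1a2, Col4a1, Des, and Lum held no match to the CArG pattern, and Col1a2 held TATAA 170 bases before the start. Among promoters of other smooth muscle contractile genes, 1 of 13 genes held the element, namely Srf, with 2 of them, and Tpm2 held none. Among those of other stellate cell markers, 2 of 12 genes held it, namely Lrat and Gfap. The element was thus also found in genes that did not pass the limits and was missing in Tpm2 and Hand2, which did with sevoflurane. A match is a run of letters and was not shown to be a binding site, and no match concerns only these letters in this window.

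Other genes of the smooth muscle contractile apparatus mostly stayed within the limits. Of 18 listed symbols, 15 were found in the tables, and 10 were above 2 TPM in either sevoflurane library and 11 in either desflurane library. With sevoflurane, 1 of the 10 was higher past the limits and none was lower, compared with 2.23% and 3.3% of genes. The gene past the limits was Tpm2, which encodes beta-tropomyosin, with TPM values of 0.63 and 2.08 (3.32-fold). Its value with desflurane was 0.94 compared with 0.87 in the control. With desflurane, none of the 11 passed in either direction, compared with 2.79% of genes higher and 1.48% lower. The most abundant genes of the list were Cald1 (caldesmon), at 127 and 122 with sevoflurane and 162 and 118 with desflurane, and Mylk (myosin light chain kinase), at 47.4 and 53.8 with sevoflurane and 46.3 and 78.0 with desflurane. With sevoflurane 6 were higher and 4 were lower than in the control, compared with 5509 and 4245 of 9754 genes. With desflurane 8 were higher and 3 were lower, compared with 6568 and 3287 of 9855 genes. The medians of the list were 0.23 and 0.30 on the log2 scale, beside 0.05 and 0.12 over all genes. In Mylk and Tpm2 both livers after 6 hours were above both controls, and in Cald1 both were below. This was the case in 33.3% and 13.3% of genes. Myh11, which encodes the myosin heavy chain specific to smooth muscle, was named after its values were seen. It was low in all livers, at 1.63 and 0.96 TPM with sevoflurane and 1.35 and 2.25 TPM with desflurane, and thus lower with the agent with which Acta2 passed the limits. Srf, the gene of serum response factor and also named after its values were seen, ranged from 7.73 to 8.68 TPM in the 4 livers.

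**Figure D2:**
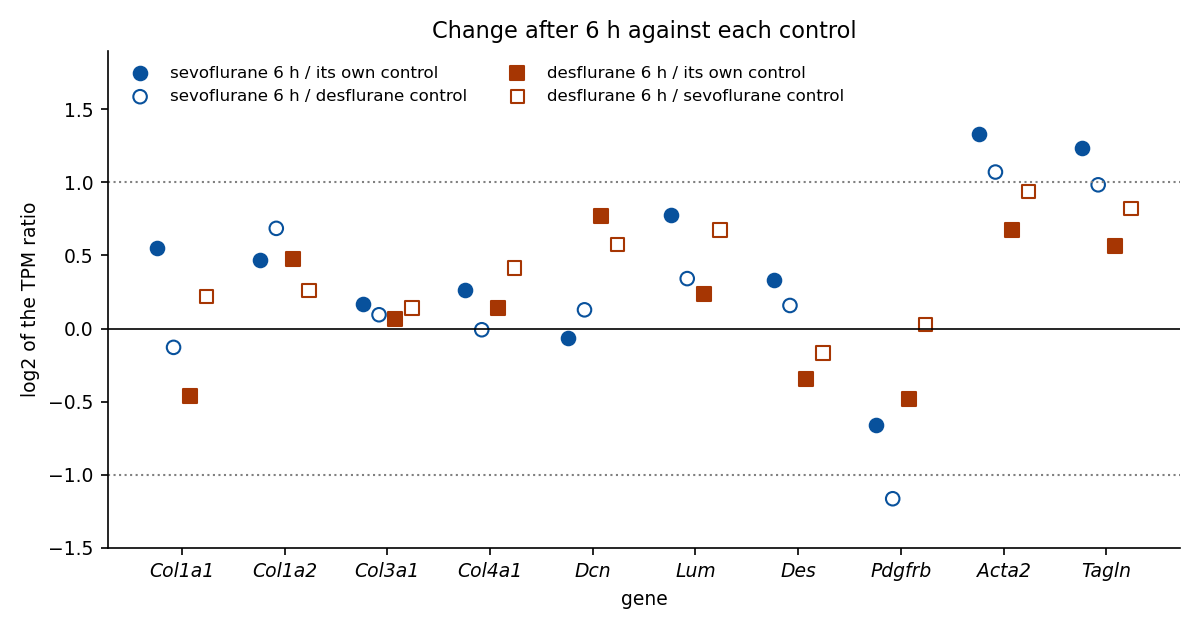
Log2 of the TPM ratio of each member for 6 hours of sevoflurane (circles) and desflurane (squares), filled against the agent's own control and open against the control of the other agent; dotted lines mark 2-fold. All 4 points of Acta2 and of Tagln are at or above 0.57, and the filled points of Col1a1 and of Des fall on opposite sides of 0.

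The fibrillar collagen genes differed less between the livers. Col3a1 (chr9:52023295-52059221, plus strand) had TPM values of 196 and 220 with sevoflurane and 206 and 216 with desflurane, in the order of control and 6 hours. The highest value was 1.12 times the lowest. Both values after 6 hours exceeded both controls, but the log2 ratio with desflurane, 0.07, was smaller than the shift of all genes, and its direction was reversed by median-of-ratios scaling and with FPKM values.

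Col1a1 and Col1a2 encode the chains that combine in type I collagen, the main collagen of scar tissue. Col1a1 (chr10:82745801-82762790, plus strand) was 12.7 at the start of sevoflurane and 18.6 at 6 hours, and 20.3 at the start of desflurane and 14.8 at 6 hours. It was 1.46-fold higher with sevoflurane and 1.38-fold lower with desflurane. The controls themselves differed 1.60-fold and included both the lowest and the highest value, and set against the other agent's control the direction was reversed for sevoflurane and for desflurane (ratios of 0.915 and 1.16). Col1a2 was listed in 2 rows on the plus strand of chromosome 4, at chr4:29529854-29564781 and chr4:31534225-31569152, and these values were summed. It was 32.5 and 45.0 with sevoflurane and 28.0 and 38.9 with desflurane. Both values after 6 hours were higher than both controls, with ratios of 1.39 and 1.39 against the own control and 1.61 and 1.20 against that of the other agent. The first row gave 13.2, 16.9, 10.5, and 14.9 and the second row 19.3, 28.1, 17.5, and 24.0, in the order of the sevoflurane and the desflurane pair, so the order of the livers was the same in both rows. How reads were divided between the rows was not tested. An assembled transcript on the opposite strand overlapped the second row at 160 and 173 TPM with sevoflurane and 143 and 202 TPM with desflurane, several times the values of the row itself, and its part in the Col1a2 values was not tested. The ratio of Col1a1 to Col1a2 was 0.391 and 0.413 with sevoflurane and 0.727 and 0.380 with desflurane, and the desflurane control thus stood apart from the other 3 livers.

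Col4a1 (chr16:83522162-83632153, plus strand), which encodes a chain of the type IV collagen network of basement membranes, was 28.4 and 34.2 with sevoflurane and 34.4 and 37.8 with desflurane. The values of the sevoflurane liver after 6 hours and of the desflurane control were nearly equal. Of 16 other collagen chains, 10 were found in the tables and 6 were above 2 TPM. None of the 6 passed the limits with either agent, and their median log2 ratios were 0.19 with sevoflurane and 0.07 with desflurane. The most abundant were Col14a1, at 26.5 and 25.8 with sevoflurane and 30.7 and 33.4 with desflurane, and Col6a2, at 23.9 and 28.5 and at 25.8 and 29.3. Basement membrane genes, of which 8 of 12 were found and 6 were above 2 TPM, also showed no member past the limits. Their most abundant genes were Sparc, a collagen-binding glycoprotein (150 and 160 with sevoflurane, 155 and 179 with desflurane), and Lamc1, the laminin gamma-1 chain (14.6 and 18.9, 17.5 and 19.7).

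Enzymes and chaperones of collagen synthesis and crosslinking were all found, 17 of 17, with 14 above 2 TPM in the sevoflurane pair and 13 in the desflurane pair. With sevoflurane 12 of the 14 were higher than in the control, compared with 5509 of the 9754 genes tested. None was past the limits, and the median log2 ratio was 0.19. Against the desflurane control, 9 of the 14 were higher with sevoflurane, compared with 5687 of 9754 genes. The desflurane control itself was higher than the sevoflurane control for 11 of 13, compared with 4403 of 9756 genes. With desflurane 7 were higher and 6 were lower than in its own control, compared with 6568 and 3287 of 9855 genes, and 1 was lower past the limits. This was Lox, which encodes lysyl oxidase, the enzyme that starts collagen crosslinking. Its TPM value was 3.39 and 6.51 with sevoflurane (1.92-fold higher) and 5.75 and 2.79 with desflurane (2.06-fold lower), and with the other control the ratios were 1.13 and 0.823. The most abundant genes of this list were Ppib, a collagen-folding isomerase, which ranged from 250.01 to 259 in the 4 livers, and Bmp1, a procollagen proteinase, which ranged from 47.2 to 60.1. Among 17 matrix proteases and inhibitors, 9 were above 2 TPM and none passed the limits. The most abundant were Mmp19 (53.0 and 54.6, 54.0 and 44.0) and Mmp14 (41.1 and 50.6, 52.1 and 59.1).

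Dcn and Lum are neighbors on the plus strand of chromosome 7 (chr7:38742250-38782276 and chr7:38820058-38826862). They encode decorin and lumican, small leucine-rich proteoglycans that bind collagen fibrils. Dcn was 11.7 and 11.2 with sevoflurane and 10.2 and 17.4 with desflurane. Only the liver after 6 hours of desflurane stood above the others, 1.70-fold higher than its own control and 1.49-fold higher than the sevoflurane control. Lum was 1.59 and 2.73 with sevoflurane and 2.15 and 2.54 with desflurane. It was 1.71-fold and 1.18-fold higher than in the respective control, at a coverage between 2.86 and 4.62, the lowest range among the members. The ratio of Dcn to Lum was 7.35 and 4.10 with sevoflurane and 4.75 and 6.86 with desflurane, and it therefore moved in opposite directions. Of 20 other proteoglycans and glycoproteins of the matrix, 19 were found, with 12 above 2 TPM in the sevoflurane pair and 13 in the desflurane pair, and none passed the limits. Fn1, the fibronectin gene, which hepatocytes also express, was the most abundant at 915 and 954 with sevoflurane and 1068 and 1119 with desflurane. It was followed by Bgn, the biglycan gene, at 117 and 133 and at 116 and 130.

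Pdgfrb (chr18:56364677-56406381, plus strand) encodes the beta receptor for platelet-derived growth factor, a mitogen of activated stellate cells, and also marks pericytes. It was 10.6 at the start of sevoflurane and 6.75 at 6 hours, and 15.1 at the start of desflurane and 10.8 at 6 hours. It was 1.58-fold lower with sevoflurane and 1.39-fold lower with desflurane than in the own control. Against the control of the other agent, it was 2.24-fold lower with sevoflurane, past the limits, whereas the desflurane value was 1.02 times the control. The controls differed 1.42-fold, and the 6 hour desflurane value was close to the sevoflurane control. Short assembled transcripts on the opposite strand overlapped the gene at 5.84 and 5.62 TPM with sevoflurane and 7.81 and 3.66 TPM with desflurane, and their part in the Pdgfrb values was not tested. The ratio of Acta2 to Pdgfrb was 0.590 and 2.34 with sevoflurane and 0.498 and 1.11 with desflurane. It differed less when Acta2 was set against Col3a1, at 0.0321 and 0.0719 with sevoflurane and 0.0366 and 0.0557 with desflurane.

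Ligands and the other receptor genes of this pathway were mostly low. Of the 6 listed, 3 were above 2 TPM, and none was higher past the limits with either agent. Pdgfra, the alpha receptor gene, was 8.58 and 8.49 with sevoflurane and 7.36 and 11.0 with desflurane, and the ligand gene Pdgfa was 1.07-fold lower with sevoflurane and 1.28-fold lower with desflurane. Pdgfc, another ligand gene, was lower past the limits with sevoflurane (6.27 and 2.49) and was 3.54 and 5.31 with desflurane. Against the desflurane control, its sevoflurane value was 0.704 times the control and within the limits.

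In the transforming growth factor beta pathway, 19 of 21 listed symbols were found and 18 were above 2 TPM. With sevoflurane 2 of the 18 were higher past the limits and none was lower, compared with 2.23% and 3.3% of genes. With desflurane none passed, compared with 2.79% of genes higher and 1.48% lower. The 2 genes past the limits with sevoflurane were the ligand genes Tgfb3, at 2.77 and 6.56 (2.37-fold), and Tgfb2, at 1.83 and 3.88 (2.12-fold). With desflurane they were 2.31 and 3.37 and 1.81 and 2.64, both 1.46-fold higher. Against the control of the other agent, the sevoflurane ratios were 2.84 for Tgfb3 and 2.15 for Tgfb2, and the desflurane ratios were 1.22 and 1.44. The most abundant genes of this list were Tgfbi, a secreted matrix protein gene (135 and 113, 135 and 127), and the receptor gene Tgfbr2 (106 and 85.9, 95.6 and 92.5). The medians of the list were 0.05 with sevoflurane and -0.01 with desflurane on the log2 scale.

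Des (chr9:82556582-82564287, plus strand) encodes desmin, the intermediate filament protein by which stellate cells are recognized in rodents. It was 2.41 and 3.04 with sevoflurane and 2.73 and 2.15 with desflurane, 1.26-fold higher and 1.27-fold lower. All 4 values were near the limit of 2 TPM, at a coverage between 3.62 and 5.14. Of 16 other markers of stellate cells, 15 were found and 12 were above 2 TPM in both pairs. With sevoflurane 1 of the 12 was higher past the limits and none was lower, compared with 2.23% and 3.3% of genes. The median log2 ratio was -0.07. With desflurane none passed, compared with 2.79% of genes higher and 1.48% lower, and the median was 0.11. The gene past the limits was Hand2, a transcription factor gene of the stellate cell lineage, at 4.19 and 10.1 (2.40-fold) with sevoflurane and 5.26 and 8.05 (1.53-fold) with desflurane. Against the desflurane control, its sevoflurane value was 1.92-fold higher and within the limits. Vim, the vimentin gene, was 33.7 and 25.8 with sevoflurane and 30.9 and 29.7 with desflurane. Lrat, the enzyme that esterifies retinol for storage and a defining stellate cell gene, was named after its values were seen. It was 28.5 and 15.5 with sevoflurane and 27.7 and 25.3 with desflurane, and the liver after 6 hours of sevoflurane was the lowest of the 4. The ratio of Acta2 to Lrat was 0.220 and 1.02 with sevoflurane and 0.272 and 0.475 with desflurane. Acta2 had passed the limits in these libraries and Lrat was chosen by its values, so the size of this difference follows in part from the choice. Of the 12 markers above 2 TPM, Lrat had the lowest log2 ratio with sevoflurane, at -0.88. Among these 12, 5 were higher and 7 were lower than in the sevoflurane control, compared with 5509 and 4245 of 9754 genes. Ngfr, another marker named after its values were seen, did not exceed 0.28 TPM in any liver.

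**Figure D3:**
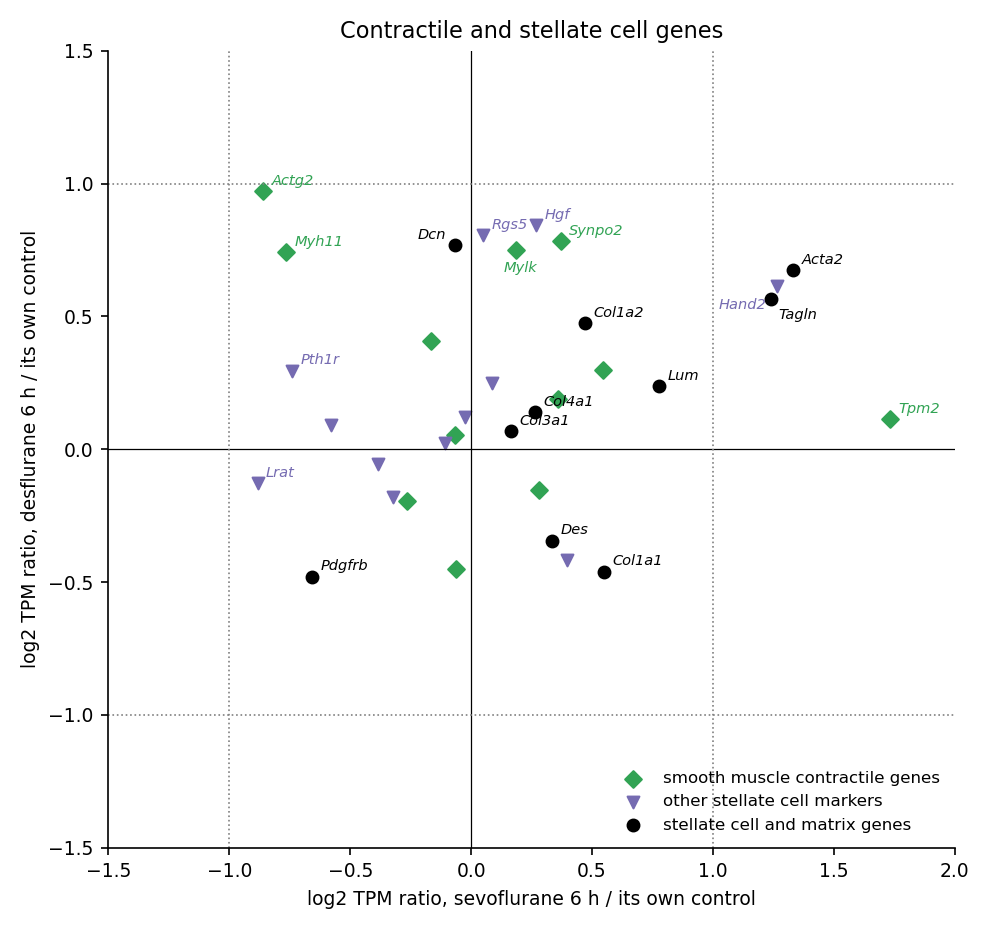
Log2 TPM ratios with sevoflurane (horizontal axis) and desflurane (vertical axis), each against its own control, for the members (circles), smooth muscle contractile genes (diamonds), and other stellate cell markers (triangles) above 2 TPM in any liver; dotted lines mark 2-fold. Acta2, Tagln, and Hand2 lie together on the upper right, and Tpm2 lies far to the right near 0 on the vertical axis. Among the genes on the left are Lrat and Pdgfrb and the contractile genes Actg2 and Myh11.

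Counted over the 10 members, 2 were higher past the limits with sevoflurane against its own control, compared with 2.23% of the 9754 genes tested, and 0 were lower, compared with 3.3%. With desflurane against its own control, 0 members were higher and 0 were lower, compared with 2.79% and 1.48% of 9855 genes. With median-of-ratios scaling, all genes called with desflurane were 197 higher and 196 lower, compared with 275 and 146 before it, and no member was called either way. Against the sevoflurane control, the same scaling gave 208 higher and 200 lower genes with desflurane instead of 280 and 156. With sevoflurane against the desflurane control, 1 member was higher (Acta2) and 1 was lower (Pdgfrb), compared with 2.52% and 2.59% of genes. With desflurane against the sevoflurane control, 0 members passed in either direction, compared with 2.84% and 1.58%. The median log2 ratio of the 10 members was 0.40 with sevoflurane and 0.19 with desflurane against the own control, beside 0.05 and 0.12 over all genes, and 0.14 and 0.34 against the control of the other agent, beside 0.07 and 0.11. With a 1.5-fold limit against the own control, 3 members were higher with sevoflurane (Lum, Acta2, and Tagln) and 1 was lower (Pdgfrb), compared with 8.03% and 8.08% of genes, and 2 were higher with desflurane (Dcn and Acta2) and 0 lower, compared with 10.4% and 4.25%. With the controls exchanged, 3 members were higher and 1 lower with sevoflurane, compared with 8.64% and 7.27%, and 3 were higher and 0 lower with desflurane, compared with 9.67% and 4.5%. In 5 of the 10 genes, namely Col1a2, Col3a1, Lum, Acta2, and Tagln, both livers after 6 hours were above both controls, and in none were both below. Among 9993 genes above 2 TPM in any liver, 33.3% had both above and 13.3% both below, and 5 of 10 is to be read beside this background.

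The 2 control livers also differed in their levels of the 10 genes. No member differed more than 2-fold between them, compared with 1.17% of genes higher and 1.17% lower in the desflurane control. With a 1.5-fold limit 1 member was higher in the desflurane control (Col1a1) and 0 were lower, compared with 3.82% and 4.12%. The desflurane control had the higher value for 8 of the 10 genes, compared with 4403 of 9756 genes. The median log2 ratio was 0.26 for the members, compared with -0.03 over all genes. The differences of Col1a1 (1.60-fold) and Pdgfrb (1.42-fold) were larger than those of Acta2 (1.20-fold) and Tagln (1.19-fold). Between the livers after 6 hours, no member differed more than 2-fold, compared with 2.76% of genes higher and 1.17% lower with desflurane, and with a 1.5-fold limit 2 members were higher and 0 lower, compared with 8.98% and 4%. The desflurane liver was higher for Pdgfrb (1.61-fold), Dcn (1.56-fold), and Col4a1 (1.11-fold) and lower for the other 7. Over all genes, 5755 of 9829 were higher and 4074 were lower. The median log2 ratio was -0.16 for the members and 0.07 over all genes. The concentrations of the agents differed, and the difference between agents was not tested.

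Markers of other cells of the liver also differed between these livers. All 11 macrophage markers found were lower with sevoflurane than in its control, compared with 4245 of 9754 genes. Of these markers, 4 were lower past the limits, compared with 3.3% of genes. Their summed TPM was 809 and 485, compared with 641 and 757 with desflurane. The most abundant were C1qc (190 and 124, 136 and 165) and Clec4f (121 and 76.5, 94.7 and 123). Among those past the limits with sevoflurane were Cd5l (90.6 and 33.4), Marco (32.6 and 12.7), and Adgre1 (16.1 and 7.29). Against the desflurane control, all 11 were again lower with sevoflurane, compared with 4067 of 9754 genes. In this comparison 2 were past the limits, compared with 2.59% of genes, and Adgre1 was not among them (1.79-fold lower). The median log2 ratio was -0.33 instead of -0.66. The 12 endothelial markers, led by Fcgr2b (90.0 and 93.1, 83.9 and 96.2) and Kdr (52.7 and 47.6, 50.2 and 54.0), had no member past the limits, and their summed TPM ranged from 340 to 400.0 over the 4 livers. Among 10 hepatocyte markers, none passed with sevoflurane. With desflurane 1 of them, Ass1, was higher past the limits (745 and 1700), compared with 2.79% of genes. Alb, the albumin gene, ranged from 77519 to 92912, and Tf, the transferrin gene, from 21343 to 25581. Of 9 portal fibroblast markers found, 4 were above 2 TPM in any liver and 1 of the others, Il6, was listed at 0 in all. Dpt, the most abundant, was 117 and 135 with sevoflurane and 139 and 97.2 with desflurane, and Mfap4 was 11.6 and 10.1 and 10.1 and 10.7. Cd34 (0.98 and 2.30) and Entpd2 (0.87 and 2.36) were higher past the limits with desflurane, compared with the same 2.79% of genes. Neither they nor Ass1 passed against the sevoflurane control, in which Cd34 was 2.39. Of 4 mesothelial markers, Gpm6a (15.8 and 18.9, 17.9 and 17.0) and Msln (2.60 and 2.79, 0.67 and 1.24) were the most abundant and none passed the limits, although Msln was 4.16-fold higher with sevoflurane than in the desflurane control. Of 6 cholangiocyte markers, led by Epcam (9.19 and 10.3, 13.9 and 7.97) and Spp1 (3.44 and 4.25, 4.07 and 3.26), none passed either. The part of these markers in the values of the 10 members was not tested.

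**Figure D4:**
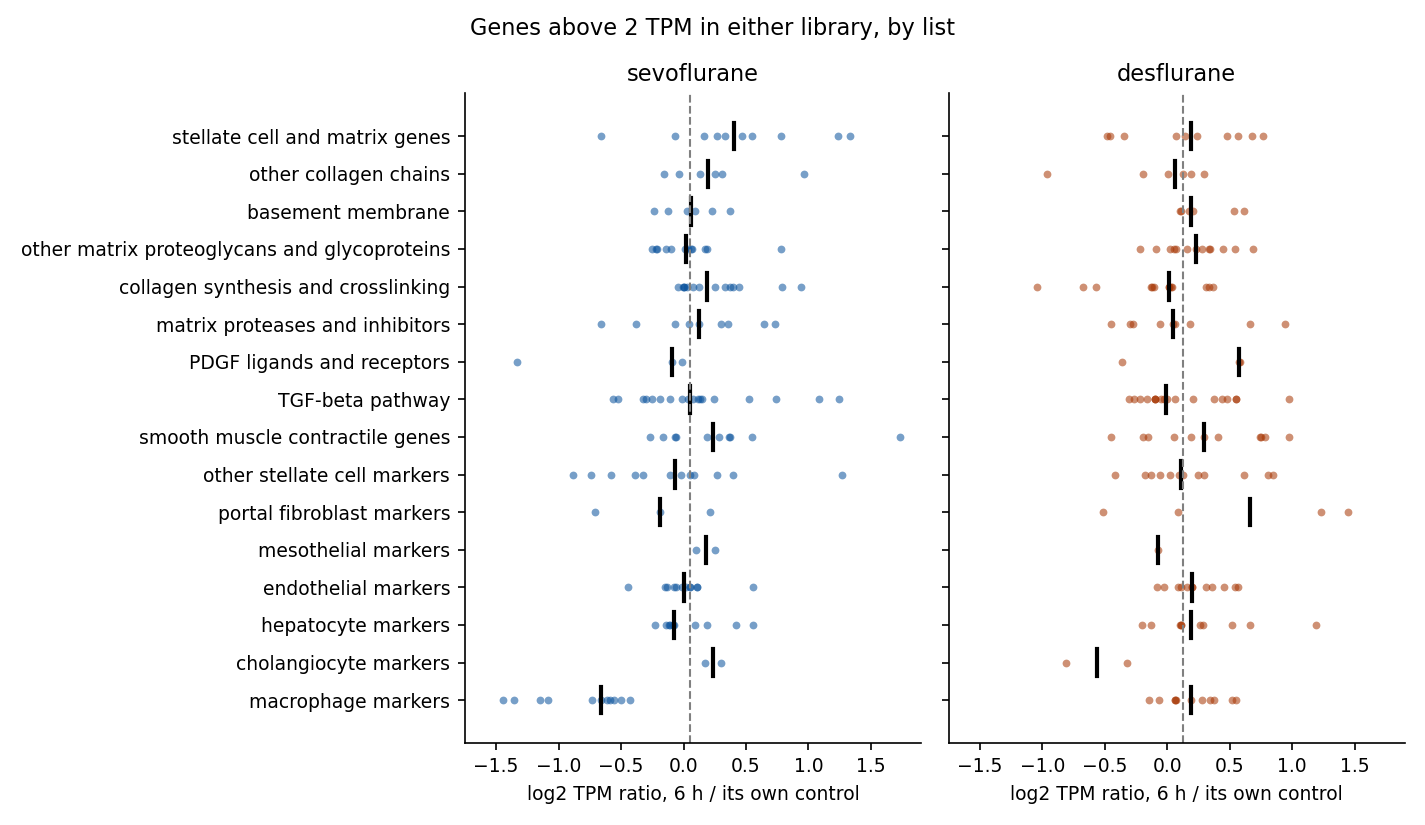
Log2 TPM ratios against the own control for sevoflurane (left) and desflurane (right), with 1 point per gene above 2 TPM in either library, a black bar for the median of each list, and a dashed line for the median over all genes. The 10 members had a median of 0.40 with sevoflurane and 0.19 with desflurane, and the macrophage markers, at the bottom, had medians of -0.66 and 0.19.

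Among 9136 genes above 2 TPM in every liver, the genes with the pattern most like that of Acta2 and Tagln were Mid1, Hand2, Nnmt, Nupr1, and Sptan1. Likeness was the largest difference of the 4 centered log2 values from the mean of Acta2 and Tagln, and it was 0.03 for Mid1, 0.05 for Hand2, 0.11 for Nnmt, 0.12 for Nupr1, and 0.12 for Sptan1. Mid1 was 2.14 and 5.25 with sevoflurane and 2.52 and 3.82 with desflurane. Pairs of Col1a1, Col1a2, and Col3a1 differed by 0.32 to 0.66 on this scale, so a gene near their mean need not be near each of them. For the mean of Col1a1, Col1a2, and Col3a1, the nearest genes were Prkar2a (0.01), Ighmbp2 (0.02), Cdc42bpa (0.02), Ftl1 (0.02), and Tspan31 (0.03). These are likenesses over 4 livers, each of a single rat.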

How the data were processed

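Per the labels and the methods of the study, liver RNA depleted of ribosomal RNA was sequenced in paired-end reads, trimmed with sickle, mapped to rn6 with HISAT2, sorted with SAMtools, and quantified with StringTie and the rn6 refGene annotation. The labels and the paper name different library kits. The deposited TPM values are a signal that the authors' StringTie run scaled so that its assembled rows add up to the fixed total of TPM, and the deposited coverage is a signal per base without scaling for library size. FPKM values were normalized for library size by the authors and were used as an alternative. Read counts are not among the values used here, and counting intervals were not calculated. Aligned sequence was derived from the median ratio of coverage to FPKM, which 96.3% to 96.5% of annotated rows above a coverage of 1 shared within 0.2%.

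Annotated rows longer than 200 base pairs were used, and rows with the same symbol were summed. Assembled rows measure the same loci again and were not added. A gene was called when it was above 2 TPM in the higher library and more than 2-fold different. This call was tested on simulated data, with changes set well beyond the fold limit and little noise, so that the outcome was fixed in advance. How often the call errs between rats was not tested, since each condition has 1 library. Between the 2 controls, 114 of 9756 genes were higher and 114 were lower past these limits in the desflurane control. No test was made with 1 library per group. The members and the 15 gene lists were chosen with earlier results of these data known. Symbols were matched exactly, and symbols not matched were left out, some of them second symbols of a gene in the same list. Genes named from a list were its 2 most abundant and up to 3 past the limits per agent. The 5 genes nearest in pattern to the collagen genes and to Acta2 and Tagln were named as well, and genes outside this rule are marked. Of the genes that this rule names, 1 is not reported here. Alternatives covered the TPM and fold limits, a pseudocount, scaling, FPKM, row length, coverage, the control, and the rows used. The software was Python 3.11.15 with numpy 2.4.6, pandas 2.3.3, and matplotlib 3.10.9.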

Additional observations from a re-analysis of the deposited data

Results flagged for a closer look

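3 of the 10 members had log2 ratios of opposite sign for the agents against their own controls, and this difference was not tested, since each condition has 1 library. The log2 ratio of Col1a1 was 0.55 with sevoflurane and -0.46 with desflurane, and both signs were reversed with the control of the other agent. Dcn was -0.066 and 0.77, and with the other control it was 0.13 and 0.57, so that the sevoflurane value changed sign. Des was 0.33 and -0.34, and with the other control it was 0.16 and -0.17. Opposite directions were seen in 40% of the 9993 genes above 2 TPM in any liver.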

How the results depend on the processing

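Acta2 and Tagln stayed past the limits against the sevoflurane control under all 12 alternatives, at 2.29-fold to 2.52-fold for Acta2 and 2.15-fold to 2.36-fold for Tagln. Of these, the lower TPM and fold limits, row length, coverage, and the use of a single Col1a2 row could not have removed the calls. The exchange of controls was not among the alternatives, and Tagln was 1.98-fold higher against the desflurane control, within the limits. Against the desflurane control with sevoflurane, the number of higher members was 3 with a fold limit of 1.5, 0 with 1 TPM added, 0 with median-of-ratios scaling, and 2 with FPKM, instead of 1. The other changed counts were due to the fold limit of 1.5, with which 1 member was lower with sevoflurane and 2 were higher with desflurane against the own control, and 3 were higher with desflurane against the sevoflurane control. The median log2 ratio with sevoflurane against its own control was 0.21 with the mean of both controls and 0.57 with assembled rows in place of annotated rows, an alternative chosen after seeing the data. With desflurane it was 0.062 with median-of-ratios scaling and 0.32 with the mean of both controls. Against the control of the other agent, FPKM gave medians of 0.27 with sevoflurane and 0.083 with desflurane, and median-of-ratios scaling gave 0.23 with desflurane. Apart from these settings, the cause of the shifts was not tested. Of the results over all 10 members, 124 of 138 alternative values were within 1.5 times the reported count or within 0.1 of the reported median. Part of these values could not differ, because the medians do not depend on the TPM and fold limits and the length filter removes no member. The addition of assembled rows was not run, since they repeat the annotated rows. No paired analysis was possible because each condition has 1 library. The precision of low members (Lum, Des) is limited by their coverage.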

Other observations

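Col8a1, a short-chain collagen gene of vessel walls, was chosen after its values were seen and is set beside Lox. Like Col1a1, each of these was higher with sevoflurane and lower with desflurane than in its own control. Col8a1 was 2.67 TPM at the start of sevoflurane and 5.22 at 6 hours, and 5.43 at the start of desflurane and 2.79 at 6 hours. Lox was 3.39 and 6.51, and 5.75 and 2.79. In these genes and in Col1a1, the sevoflurane liver at 6 hours and the desflurane control held the higher values. With the controls exchanged, the directions of Col1a1 and Col8a1 were reversed, whereas those of Lox were not. Aspn, which encodes asporin, a leucine-rich proteoglycan, was also chosen after its values were seen. It was 0.60 TPM in the sevoflurane liver at 6 hours and at least 1.79 TPM in each of the other 3 livers.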
